A study of Blattella germanica with 16 samples.

Results

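The trypsin-family serine proteases and the proteins named as their inhibitors were examined in the fat body of the German cockroach, Blattella germanica. The members were the genes whose product name in the deposited table contains trypsin, kallikrein, serine protease, serine proteinase, serpin, antichymotrypsin, plasminogen or coagulation factor. This rule found 37 of 28676 genes, 28 named as proteases and 9 as inhibitors. Of the inhibitors, 4 are named as serpins, serpin-like proteins or serine protease inhibitors. The others, 4 genes named inter-alpha-trypsin inhibitor heavy chain H4 (ITIH4) and the alpha-1-antitrypsin-like ALSI, entered the list only through the word trypsin. Names were taken from the annotation with no test against sequence, and members with similar sequences carry an uncertainty in how the authors' counting divided reads among them.

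RNA sequencing compared adult females that had received double-stranded RNA (dsRNA) against 1 of 3 insulin receptors, called dsInR1, dsInR2 and dsInR3, with females given a control dsRNA, dsMock, whose columns in the table carry the name of a polyhedrin dsRNA. Every female, controls included, was injected in the abdomen with 2 µg of dsRNA on 2 occasions 7 days apart. In all groups the ootheca, the egg case, was removed on day 12, and dissection followed on day 5 of the second cycle of egg maturation per the series text, while the treatment protocol puts the injections 12 and 5 days before extraction. Each group had 4 libraries, named here by group and column number, and the sources used here do not give the number of animals behind a library. If libraries of a group do not come from separate animals, the p-values below measure only the spread between these samples, which may be technical.

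Serine proteases of the trypsin family cut proteins after a serine-dependent attack in their active site and are usually made as inactive zymogens. In insects they digest food in the gut, and in hemolymph they act in relays that end in melanization by phenoloxidase or in cleavage of Spaetzle, the ligand of the receptor Toll. Serpins are suicide inhibitors that trap such proteases, and the fat body is a main source of the serpins and zymogens of insect hemolymph. In vertebrates, inter-alpha-trypsin inhibitor heavy chains are plasma proteins that bind hyaluronan, and it is their light chain that inhibits trypsin.

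Libraries held 15345964 to 23688522 counted reads. The hypothetical protein C0J52_15443 took 54.1 to 60.9% of reads in dsInR1, 2.3e-04 to 6.99% in dsInR2, 35.1 to 56.9% in dsInR3 and 51.1 to 58.8% in dsMock, so changes between groups are given in CPM, read counts scaled by library size with TMM factors. A single gene is named insulin receptor (InR), with no receptor number, so the depletion of each target could not be checked separately. Its mean was 48.9 ± 2.62 CPM in dsInR1, 5.90 ± 1.86 CPM in dsInR2, 38.5 ± 6.41 CPM in dsInR3 and 52.8 ± 1.70 CPM in dsMock (SD, n = 4). Library 3 of dsInR3 stood apart from its group in its share of reads on C0J52_15443, 35.1% against 53.8 to 56.9% in the others. Its InR level of 30.4 CPM was the lowest of the group, with 38.2 to 46.1 CPM in the other dsInR3 libraries.

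Most members were rare or undetected in this tissue. No read in any of the 16 libraries fell on 10 members, which for each of them allows at most 0.00989 CPM, unscaled, over the reads of all libraries (3 counts of the total, covering counting error only). These are TRYP_0, TRYP_1, TRYP1_1, TRYP1_2 and TRYP7_0, all named trypsins, the venom serine protease VSP_0, coagulation factor XI (F11), kallikrein KLK14, Prss41 and the antitrypsin-like ALSI. A further 7 members had fewer than 20 reads over all libraries: the chymotrypsins CTRB1 and CTR2, TRYP1_0, SP34, Sb_1, nudel (ndl), which in Drosophila acts in the egg chamber, and C0J52_07700. Only 8 members had reads in all 16 libraries, and 16 of the 37 passed the filter on low counts, 10 proteases and 6 inhibitors. Over the whole table, 10536 of 28676 genes passed that filter. The share of all genes with no or few reads was not computed, so these counts do not set the members apart from other genes. Of the 11 members with reads that did not pass the filter, TRYP7_1 had 82 reads in dsMock library 5 and none in the other 15 libraries.

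**Figure D1:**
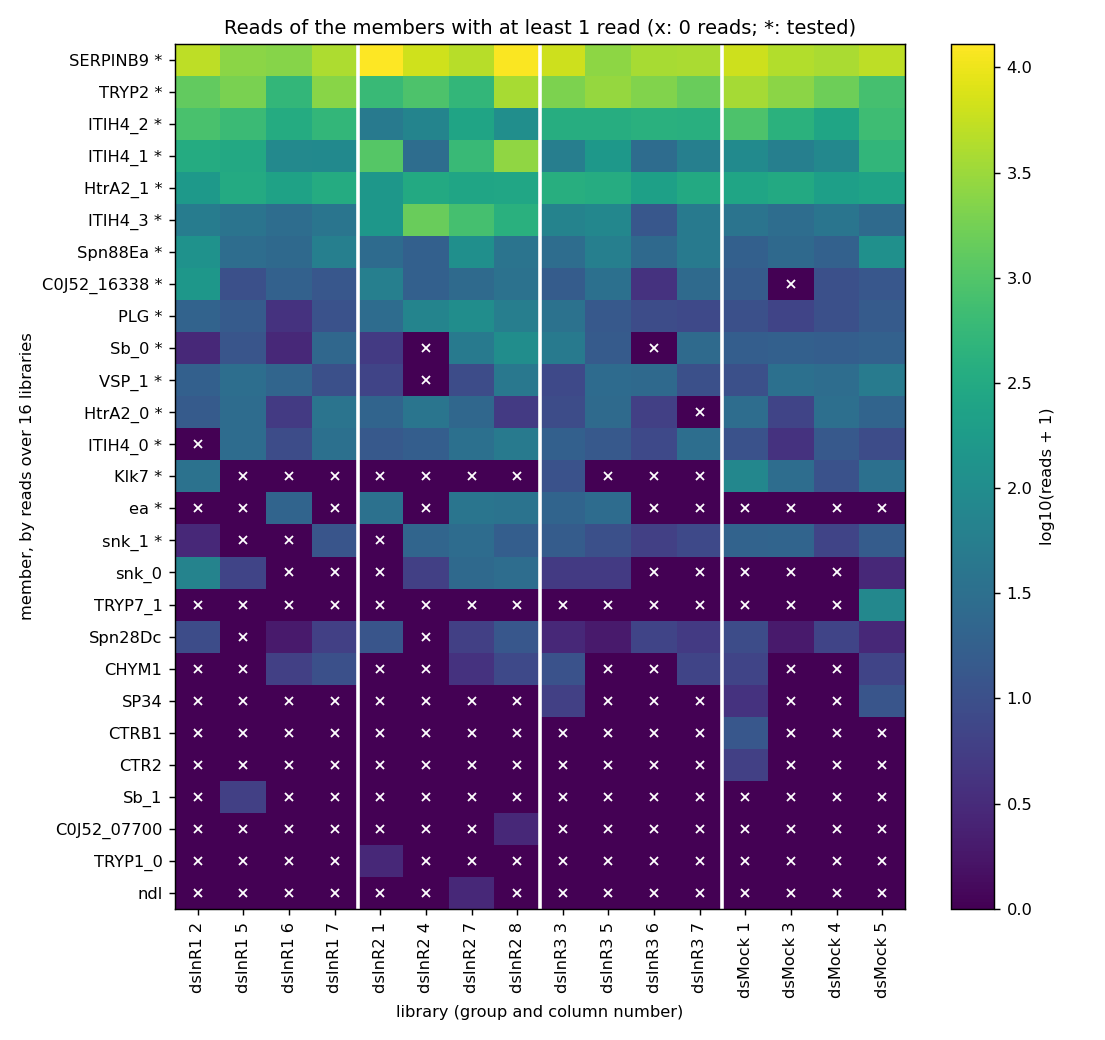
Reads of the 27 members with at least 1 read, as log10 of reads plus 1 by colour, with libraries in columns and members in rows ordered by total reads, which are not corrected for gene length. White crosses mark 0 reads and asterisks the 16 tested members; Klk7 has reads in the 4 dsMock libraries and in 2 others, and the lowest rows hold single libraries with a few reads.

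No length-corrected unit was used, so levels are compared between libraries and not between genes. Of all reads on members, SERPINB9 took 42.3 to 63.9% in dsInR1, 61.6 to 85.3% in dsInR2, 39.0 to 67.1% in dsInR3 and 55.0 to 65.4% in dsMock. The members together took 0.0221 to 0.106% of the reads of a library.

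With dsInR2, 2 of the 16 tested members rose and 3 fell against dsMock, and 11 did not pass (edgeR quasi-likelihood test, adjusted p under 0.05 over all 10536 tested genes). The ITIH4 genes held the largest changes that could be given as a fitted fold, with ITIH4_3 higher and ITIH4_2 lower, and plasminogen (PLG) rose. The mitochondrial protease HtrA2_1 and the kallikrein Klk7 fell. Over all genes 32.3% passed, 17.6% higher and 14.7% lower, so the 5 of 16 is close to the share of the table as a whole. The same 5 members were those whose dsInR2 and dsMock libraries did not overlap, as was the case for 30.1% of tested genes. The median log2 fold change of the 16 was -0.06, against 0.04 over all tested genes. It was also -0.06 with the members that had 0 reads in a group set at their bounds. Those members stay at the ends of the range, so this setting cannot move the median. The range, from Klk7 at one end to easter at the other, was wide on both sides of 0.

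**Figure D2:**
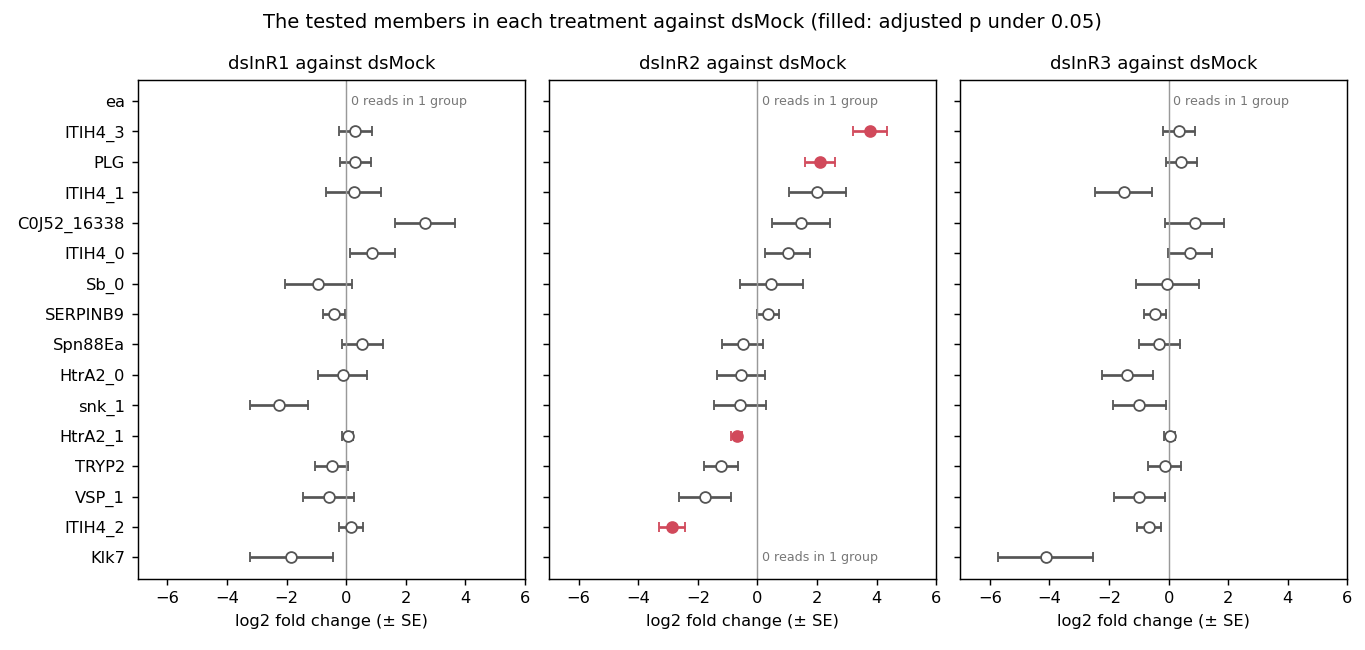
Fitted log2 fold changes, with SE, of the 16 tested members in dsInR1, dsInR2 and dsInR3, each against dsMock; filled points passed an adjusted p of 0.05. The filled points are in the dsInR2 panel, where ITIH4_3 is at 3.78 and ITIH4_2 at -2.86; Klk7 there, and easter (ea) in all panels, had 0 reads in 1 group and are given as bounds in the text.

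ITIH4_0, ITIH4_2 and ITIH4_1 lie close together on contig PYGN01000314.1 of the Bger_1.1 assembly: ITIH4_0 (C0J52_04774) from 523433 to 530016, ITIH4_2 (C0J52_04777) from 635106 to 674046 and ITIH4_1 (C0J52_04779) from 734454 to 749807. ITIH4_3 (C0J52_22616) is on contig PYGN01002481.1, from 89708 to 100491. In the annotation, ITIH4_2 and ITIH4_1 have a single hypothetical protein gene between them.

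ITIH4_2 had 2.37, 2.75, 9.07 and 3.82 CPM in dsInR2 libraries 1, 4, 7 and 8, against 45.2, 29.2, 18.4 and 38.4 CPM in dsMock libraries 1, 3, 4 and 5. Every dsInR2 library lay below every dsMock library, and the fall was 7.25-fold (log2 fold change -2.86, SE 0.44, adjusted p = 2.0e-04). In dsInR1 it had 26.3 to 58.0 CPM and in dsInR3 15.1 to 30.4 CPM, and neither group passed against dsMock (log2 fold changes 0.15 and -0.66, adjusted p = 1 and 0.487). Directly compared, ITIH4_2 was lower in dsInR2 than in dsInR1 (log2 fold change -3.01, adjusted p = 1.7e-04) and lower than in dsInR3 (-2.20, adjusted p = 0.0019). Without dsInR2 library 7 the log2 fold changes against dsMock, dsInR1 and dsInR3 were -3.45, -3.61 and -2.80.

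ITIH4_3 moved the other way. It had 7.46, 58.7, 28.7 and 14.6 CPM in dsInR2 libraries 1, 4, 7 and 8, against 1.84, 2.03, 2.74 and 1.40 CPM in dsMock libraries 1, 3, 4 and 5. All dsInR2 libraries were above all dsMock libraries but differed 7.88-fold among themselves. The rise was 13.7-fold (log2 fold change 3.78, SE 0.57, adjusted p = 1.8e-04). Without dsInR2 library 4 the log2 fold change was 3.09 (adjusted p = 3.2e-04). In dsInR1 the libraries held 1.89 to 3.66 CPM and in dsInR3 0.892 to 3.94 CPM, with log2 fold changes of 0.31 and 0.35 that did not pass. ITIH4_3 was also higher in dsInR2 than in dsInR1 (log2 fold change 3.47, adjusted p = 3.5e-04) and than in dsInR3 (3.42, adjusted p = 5.5e-04), and without dsInR2 library 4 these differences were 2.78 and 2.73.

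Within each library, the reads of ITIH4_3 relative to those of ITIH4_2 separated dsInR2 from the other groups, a description of the same changes that does not depend on scaling between libraries. The ratio was 0.0588 to 0.0868 in dsInR1, 3.15 to 21.4 in dsInR2, 0.0293 to 0.224 in dsInR3 and 0.0364 to 0.149 in dsMock. The lowest dsInR2 library thus lay above the highest of the 12 other libraries. Since the genes differ in length, the ratio shows a change between libraries and not which gene has more transcripts.

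**Figure D3:**
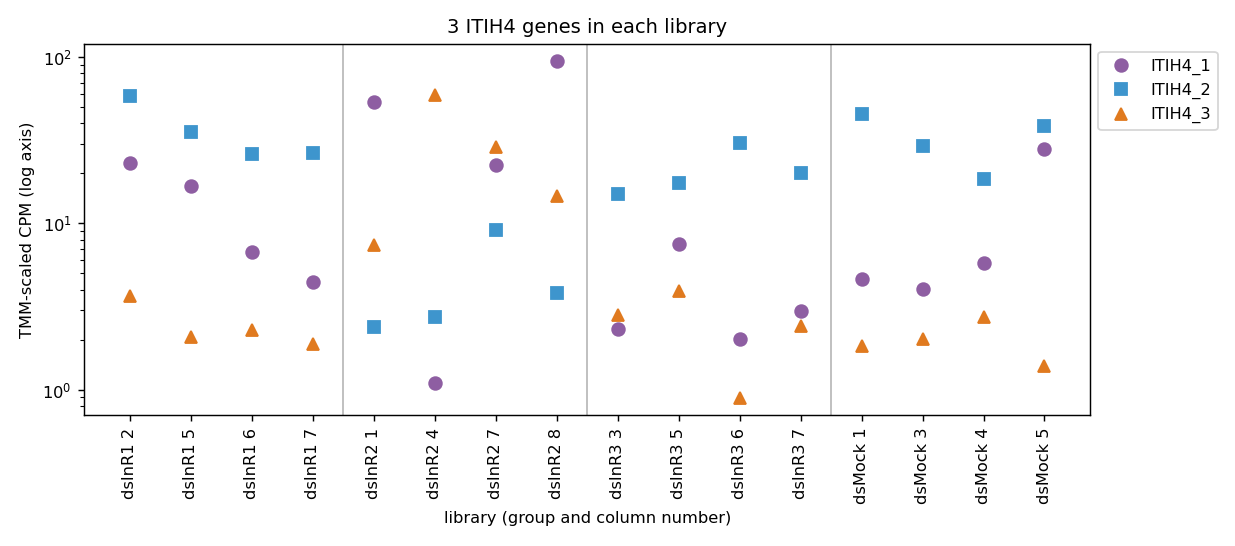
CPM of ITIH4_1, ITIH4_2 and ITIH4_3 in each library, on a log axis, with groups separated by grey lines. ITIH4_2 is at 2.37 to 9.07 CPM in dsInR2 and 18.4 to 45.2 CPM in dsMock, ITIH4_3 at 7.46 to 58.7 CPM in dsInR2 and 1.40 to 2.74 CPM in dsMock, and ITIH4_1 spans 1.1 to 94.9 CPM within dsInR2.

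ITIH4_1 was the most uneven of the 4. It had 54.0, 1.1, 22.4 and 94.9 CPM in dsInR2 libraries 1, 4, 7 and 8, against 4.63, 4.06, 5.77 and 28.0 CPM in dsMock libraries 1, 3, 4 and 5. The groups overlapped, since dsInR2 library 4 was below all dsMock libraries, and the difference did not pass (log2 fold change 2.02, SE 0.94, adjusted p = 0.117). The value moved with single libraries. Without dsInR2 library 8 the log2 fold change was 1.28 (adjusted p = 0.351), while the difference passed without dsInR2 library 4 (2.42, adjusted p = 0.0278) and without dsMock library 5 (3.16, adjusted p = 0.0325). Against dsInR1 it did not pass (1.76, adjusted p = 0.173), and did without dsInR2 library 4 (2.17, adjusted p = 0.0458). Against dsInR3, where it had 2.01 to 7.54 CPM, ITIH4_1 was higher in dsInR2 (log2 fold change 3.53, SE 1.01, adjusted p = 0.020). That call was lost without dsInR2 library 8 (log2 fold change 2.79, adjusted p = 0.0633), dsInR3 library 6 (0.063) or dsInR3 library 7 (0.060), and with only these 2 groups in the fit (0.0528), and the log2 fold change was 4.13 without dsInR3 library 5. ITIH4_0 had few reads, at 1.04 ± 0.512 CPM in dsInR2 and 0.517 ± 0.293 CPM in dsMock (SD, n = 4), and did not pass (log2 fold change 1.01, adjusted p = 0.329).

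Among the serpins, SERPINB9 (C0J52_05066) lies on contig PYGN01000511.1 from 31990 to 52695. In mammals serpin B9 is an intracellular inhibitor of granzyme B, and the sources used here give no role for the cockroach gene. It had 651.2, 251.5, 169.3 and 431.8 CPM in dsInR2 libraries 1, 4, 7 and 8, against 311.5, 305.6, 269.7 and 278.2 CPM in dsMock libraries 1, 3, 4 and 5. The dsMock libraries lay within 1.16-fold of each other, while the dsInR2 libraries spread over 3.85-fold and fell on both sides of them, and the difference did not pass (log2 fold change 0.37, SE 0.37, adjusted p = 0.485). In dsInR1 it had 138.6 to 352.0 CPM and in dsInR3 128.7 to 274.2 CPM, with log2 fold changes of -0.42 and -0.44 that did not pass. Against dsInR1 and dsInR3 the log2 differences of dsInR2 were 0.79 and 0.81 (adjusted p = 0.125 and 0.131). Without dsInR2 library 1 they were 0.38 and 0.41 (adjusted p = 0.454 and 0.448). They passed without dsInR2 library 7 (adjusted p = 0.0346 and 0.040), and the one against dsInR1 also without dsInR1 library 2 (0.0391).

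Spn88Ea (C0J52_02170), whose Drosophila namesake restrains Toll signalling, had 3.74 ± 3.26 CPM in dsInR1, 1.82 ± 1.47 CPM in dsInR2, 2.07 ± 0.748 CPM in dsInR3 and 2.56 ± 2.61 CPM in dsMock (SD, n = 4). No comparison with dsMock passed (adjusted p = 1, 0.630 and 0.893). The group means rested in part on single libraries, with 8.56 CPM in dsInR1 library 2 and 6.43 CPM in dsMock library 5. Spn28Dc, named after a Drosophila serpin that limits melanization, had 72 reads over the 16 libraries and was not tested.

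**Figure D4:**
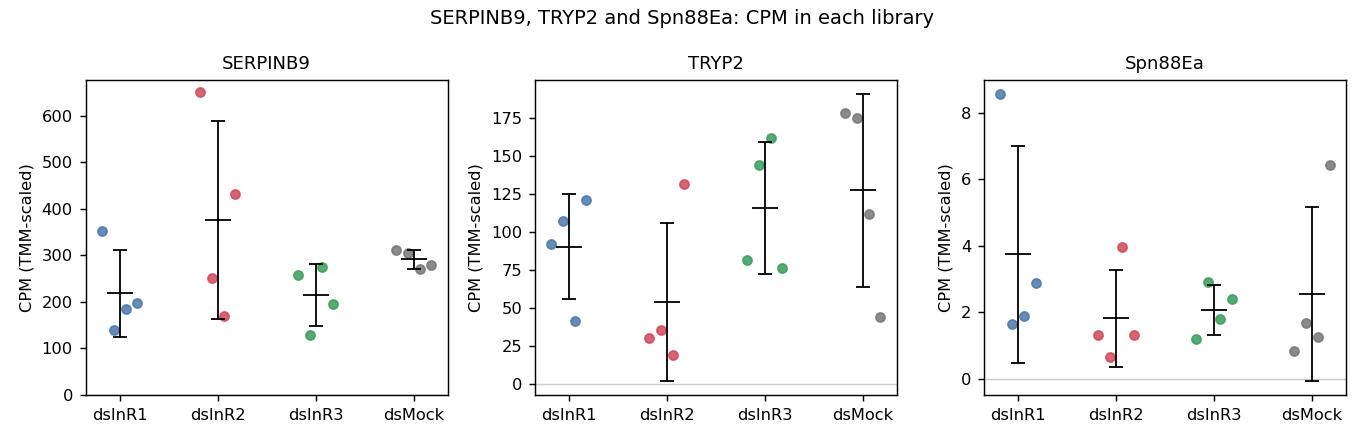
CPM of SERPINB9, TRYP2 and Spn88Ea in each library (points), with the mean and SD of each group (bars, n = 4). SERPINB9 spans 269.7 to 311.5 CPM in dsMock and 169.3 to 651.2 CPM in dsInR2, and in TRYP2 the dsInR2 library at 131.2 CPM lies apart from the other dsInR2 libraries.

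TRYP2 (C0J52_23809, trypsin-2) lies on contig PYGN01002094.1 from 76514 to 84182. Trypsins of this kind are best known as digestive enzymes of the insect gut. It had 30.4, 35.9, 19.4 and 131.2 CPM in dsInR2 libraries 1, 4, 7 and 8, against 178.4, 174.7, 112.0 and 44.2 CPM in dsMock libraries 1, 3, 4 and 5. Apart from dsInR2 library 8, the groups were separate, but the difference did not pass (log2 fold change -1.23, SE 0.56, adjusted p = 0.109). Without dsInR2 library 8 it was -2.15 with adjusted p = 0.0044, and TRYP2 was then also lower in dsInR2 than in dsInR1 (0.0185) and than in dsInR3 (0.0098). In dsInR1 TRYP2 had 41.6 to 120.9 CPM (log2 fold change -0.49) and in dsInR3 76.2 to 161.8 CPM (-0.14), neither of which passed.

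Genes listed as gut and Malpighian tubule markers, 28 by product name, summed to 692.7 to 868.6 CPM in dsInR2 and 915.2 to 1500 CPM in dsMock, with no overlap. They summed to 835.6 to 1161 CPM in dsInR1 and 916.7 to 1283 CPM in dsInR3. Of the 28, 8 had no read in dsInR2 and 9 none in dsMock. The list is led by proton pump subunits and maltases, which fat body also makes, and of its 17 tested members 2 rose and 3 fell in dsInR2, close to the 32.3% called over all genes. Whether gut material had a part in the level of TRYP2 was not tested. In bulk tissue, fewer cells of a type and less RNA per cell cannot be told apart.

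The other trypsins and the chymotrypsins had few reads. C0J52_16338, named trypsin 3A1, lies on contig PYGN01000265.1 beside the silent TRYP_0 and near chymotrypsin-1, CHYM1. It had 10.4 CPM in dsInR1 library 2 and 0.508 to 1.42 CPM in the other dsInR1 libraries, against 0 to 0.697 CPM in dsMock. It did not pass in dsInR1 (log2 fold change 2.64, adjusted p = 1) or in dsInR2 (1.46, adjusted p = 0.280). CHYM1 had 52 reads in 8 of the 16 libraries and was not tested.

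Klk7 (C0J52_26223, glandular kallikrein-7, contig PYGN01001661.1 from 80431 to 89515) was detected in every control library and seldom elsewhere. Kallikreins are secreted trypsin-family proteases described in mammals. Klk7 had 0 reads in all 4 dsInR2 libraries, against 80, 29, 10 and 32 reads in dsMock libraries 1, 3, 4 and 5, or 3.99, 2.03, 0.703 and 1.79 CPM. With 3 counts over the group as the floor, dsInR2 was at least 71.4-fold lower than dsMock (edgeR adjusted p = 0.013). The dsMock mean was 2.13 ± 1.37 CPM (SD, n = 4). The bound is taken from this mean and covers counting error only, not the spread from 0.703 to 3.99 CPM between dsMock libraries. Because the gene passed the filter on low counts through dsMock alone, its presence among the tested members depends on its level there.

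In dsInR1 and dsInR3, Klk7 had reads in 1 library each: 35 reads in dsInR1 library 2, or 2.42 CPM, and 10 reads in dsInR3 library 3, or 0.409 CPM. The dsInR3 libraries were all below the dsMock libraries, as were 10.2% of tested genes that did not overlap in either direction, and the difference did not pass (log2 fold change -4.12, SE 1.60, adjusted p = 0.251). In dsInR1 it did not pass either (-1.84, SE 1.39, adjusted p = 1). Klk7 was not called between dsInR2 and dsInR1 (adjusted p = 0.0532) or between dsInR2 and dsInR3 (0.268), so a difference in Klk7 among the receptor treatments was not shown. The first of these values fell to 0.0411 to 0.0487 when dsInR1 library 5, 6 or 7, each without a Klk7 read, was left out. Without dsInR1 library 2, which held all Klk7 reads of dsInR1, neither group had a read, so no difference could be given. The neighbour of Klk7 on the contig, TRYP1_2, had no read in any library.

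PLG (C0J52_07817, plasminogen, contig PYGN01000246.1 from 1450772 to 1467933) is named after the mammalian zymogen of plasmin, which dissolves fibrin clots. It had 1.36, 2.75, 3.68 and 2.03 CPM in dsInR2 libraries 1, 4, 7 and 8, against 0.448, 0.420, 0.633 and 0.783 CPM in dsMock libraries 1, 3, 4 and 5. All dsInR2 libraries exceeded all dsMock libraries, a rise of 4.27-fold (log2 fold change 2.09, SE 0.50, adjusted p = 0.0051), from counts of 27 to 101 reads in dsInR2 and 6 to 14 reads in dsMock. PLG was also higher in dsInR2 than in dsInR1 (log2 fold change 1.79, adjusted p = 0.013) and than in dsInR3 (1.67, adjusted p = 0.022). The call against dsInR3 was lost without dsInR2 library 7 (0.0651) or dsInR3 libraries 5 (0.0659), 6 (0.0624) or 7 (0.0688). In dsInR1 and dsInR3 its log2 fold changes against dsMock were 0.31 and 0.42, and neither passed.

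HtrA2_1 (C0J52_10672, contig PYGN01000655.1 from 700450 to 722032) encodes a serine protease HTRA2, which in animals from fly to mammal works in mitochondrial protein quality control. It had 7.61, 12.2, 9.47 and 9.60 CPM in dsInR2 libraries 1, 4, 7 and 8, against 12.9, 21.8, 14.6 and 13.8 CPM in dsMock libraries 1, 3, 4 and 5. The groups did not overlap, though the highest dsInR2 library lay just under the lowest dsMock library, and the fall was 1.62-fold (log2 fold change -0.70, SE 0.19, adjusted p = 0.012). HtrA2_1 was also lower in dsInR2 than in dsInR1 (log2 fold change -0.75, adjusted p = 0.0081) and than in dsInR3 (-0.73, adjusted p = 0.013). In dsInR1 and dsInR3 it averaged 16.4 ± 3.30 and 16.1 ± 0.758 CPM (SD, n = 4). The second gene of this name, HtrA2_0, had 0.870 ± 0.559 CPM in dsInR2 and 1.28 ± 0.728 CPM in dsMock and did not pass (adjusted p = 0.643).

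**Figure D5:**
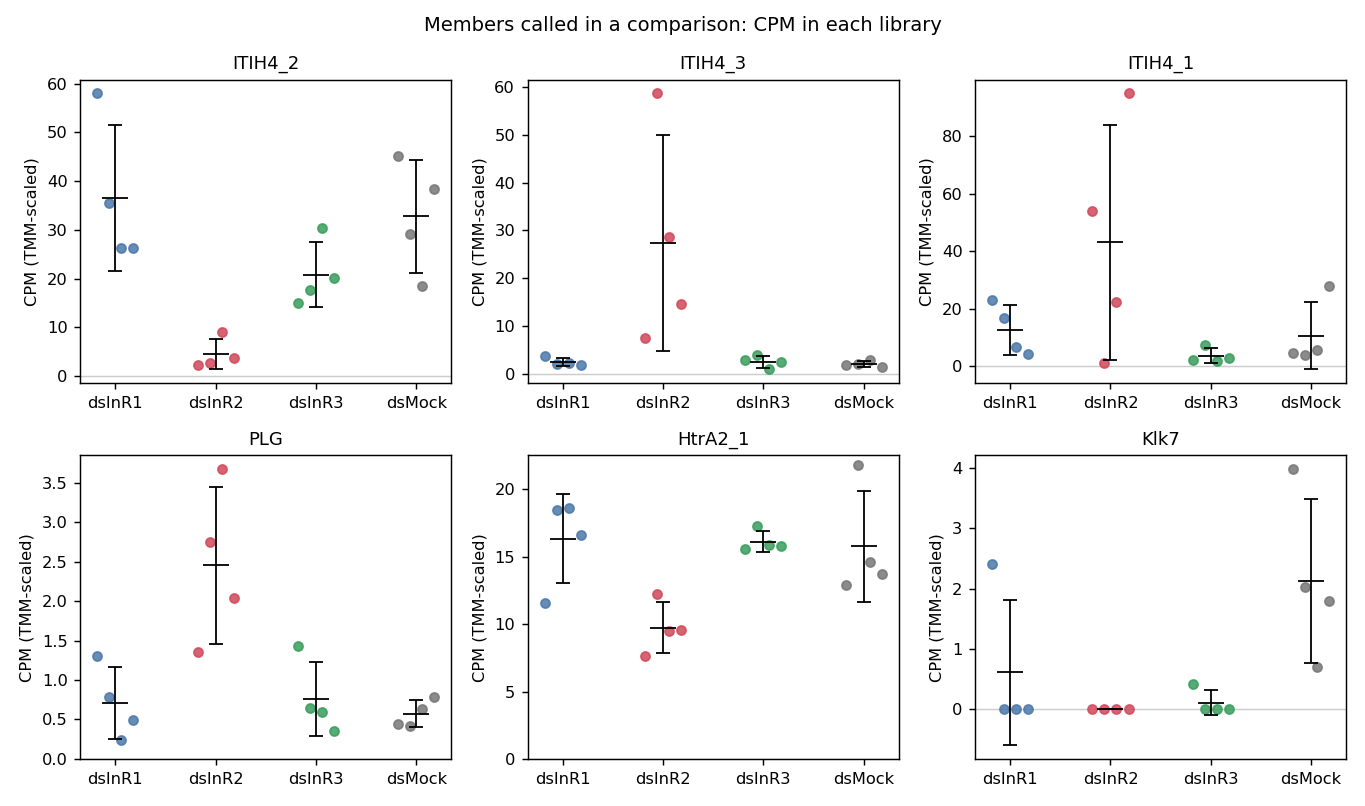
CPM in each library (points) of the 6 members called in at least 1 comparison, with the mean and SD of each group (bars, n = 4). ITIH4_3 and PLG are higher and ITIH4_2, HtrA2_1 and Klk7 lower in dsInR2 than in dsMock, with no overlap of libraries; ITIH4_1 overlaps dsMock and was called in dsInR2 against dsInR3.

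The proteases named after fly cascades were at the edge of detection. Easter (ea, C0J52_14327), which in the Drosophila embryo cleaves Spaetzle, had 33, 0, 39 and 36 reads in dsInR2 libraries 1, 4, 7 and 8, and 0 reads in all 4 dsMock libraries. Its mean of 1.09 ± 0.745 CPM in dsInR2 was at least 24.2-fold higher than the floor of 3 counts over dsMock. This bound and those below are taken from group means and cover counting error only, not the spread between libraries. With dsInR2 library 4 also at 0 reads, the groups overlapped, and the difference did not pass (adjusted p = 0.0569, and 0.0409 without library 4). Because easter passed the filter on low counts through the receptor treatments alone, its presence among the tested members depends on its level there. In dsInR1 it had reads in library 6 alone, at least 8.72-fold higher than the dsMock floor, and in dsInR3 in libraries 3 and 5, at least 11.9-fold higher. Neither passed (adjusted p = 1 and 0.321).

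Snake, which activates Easter in the fly, is represented by snk_0 and snk_1. snk_1 had 0.171 ± 0.259 CPM in dsInR1, 0.595 ± 0.431 CPM in dsInR2, 0.447 ± 0.117 CPM in dsInR3 and 0.901 ± 0.401 CPM in dsMock (SD, n = 4), and no comparison passed. In dsInR2 against dsInR1 the log2 fold change was 1.67 (adjusted p = 0.210), and 3.56 (0.0395) without dsInR1 library 7. snk_0 was not tested, and 68 of its 141 reads were in dsInR1 library 2. Sb_0, named after stubble, a membrane protease of Drosophila leg and wing formation, had 1.41 ± 1.72 CPM in dsInR2 and 1.03 ± 0.172 CPM in dsMock and did not pass (adjusted p = 0.775). VSP_1, of a bee venom protease family, had 0.532 ± 0.683 CPM in dsInR2 and 1.86 ± 1.0 CPM in dsMock (log2 fold change -1.77, adjusted p = 0.136). It passed without dsInR2 library 8, at -3.21 (adjusted p = 0.0172), as did dsInR2 against dsInR1, at -2.62 (0.0464).

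With dsInR1 and with dsInR3, edgeR called 0 of the 16 tested members against dsMock, beside 0% and 0.304% of all tested genes, the last made up of 0.199% higher and 0.104% lower. In dsInR1 the libraries of 0 members were apart from those of dsMock, as were 2.25% of all tested genes. In dsInR1, 2 members, C0J52_16338 and snk_1, had an unadjusted p under 0.05, and in dsInR3 2 members, Klk7 and easter. DESeq2 also called 0 members in both comparisons, although in dsInR3 it gave no adjusted p for 9 of the 16. Over all genes DESeq2 called 7 in dsInR1 and 443 in dsInR3, where edgeR called 0 and 32. The member medians of the log2 fold change were 0.10 in dsInR1 and -0.22 in dsInR3, against -1.5e-03 and 3.8e-04 over all genes. Between dsInR1 and dsInR3, edgeR called 0 members and 0% of all tested genes, with 0 members at an unadjusted p under 0.05 and 0 without overlap, against 6.25% of tested genes without overlap. In that comparison DESeq2 called 84 genes and 0 members, with no adjusted p for 9 members.

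Between receptor treatments, dsInR2 against dsInR1 had 2 members higher and 2 lower, where 31.1% of tested genes passed, and 3 members without overlap, where 28.8% had none. In dsInR2 against dsInR3, 3 members were higher and 2 lower, where 22.9% passed, and 3 did not overlap, where 21.9% did not. ITIH4_2, ITIH4_3, PLG and HtrA2_1 were called in both, in the same direction as against dsMock. These comparisons share the dsInR2 libraries and are not independent of each other.

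Partners of hemolymph proteases were followed in further lists of product names, each read against the 17.6% of all tested genes called higher and 14.7% called lower in dsInR2 against dsMock. In the list of melanization enzymes, which by product name also takes in hemocyanins, 4 of 5 genes were tested. Of these, 1 rose in dsInR2, near the 17.6% of all genes. It was the hemocyanin A chain HCYA (log2 fold change 3.34, adjusted p = 0.018), which shares its family with phenoloxidase. Phenoloxidase subunit 1 (PRP1) had 152.3 CPM in dsInR2 and 118.5 CPM in dsMock and did not pass (log2 fold change 0.36, adjusted p = 0.562). The median log2 fold change of the 4 tested genes, HCYA among them, was 2.2 in dsInR2, against 0.04 over all tested genes. Their median was 1.18 in dsInR1 and -0.15 in dsInR3.

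Of 16 genes matched as recognition proteins or Toll pathway genes, 5 were matched by a fragment of an unrelated name. Of the 9 others that were tested, 1 rose and 2 fell in dsInR2, about the 32.3% called over all genes. The receptor Toll (Tl) fell to 339.3 CPM in dsInR2, against 627.9 CPM in dsMock (log2 fold change -0.89, adjusted p = 0.0044). The recognition protein PGRP-LB_0, an amidase that degrades peptidoglycan in Drosophila, fell by 0.95 on the log2 scale (adjusted p = 0.012), and the adaptor ECSIT rose by 1.08 (adjusted p = 0.028).

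Of 47 genes of other peptidases, 19 were tested. In dsInR2, 2 of them rose and 9 fell (median log2 fold change -0.77), beside 17.6% higher and 14.7% lower over all genes. The putative aminopeptidase lap-2 fell to 341.5 CPM, against 1281 CPM in dsMock (log2 fold change -1.91, adjusted p = 3.1e-05), carboxypeptidase E (cpe) fell by 1.56, Xaa-Pro aminopeptidase XPNPEP1_0 by 0.77 and the angiotensin-converting enzyme Ance by 2.10. The 2 that rose, named after their values were seen, were aminopeptidase N ANPEP_1 (log2 fold change 2.31, adjusted p = 0.0050) and Npepl1 (0.44, adjusted p = 0.0437). Of 53 digestive enzyme genes, lipases and cathepsins included, 27 were tested, 2 rose and 8 fell, with a median of -0.02, beside the same 17.6% and 14.7%. Cathepsin B (CTSB) fell by 2.07, and the 2 that rose, named after their values were seen, were the cathepsin L Cp1_2 (log2 fold change 2.01) and the maltase Mal-B1_5 (2.01). The patterns for partner proteases of the clotting and Spaetzle cascades matched 20 genes, 15 of them by a fragment of an unrelated name such as cathepsin. Of the 5 others, all tested, 1 fell in dsInR2, the furin-like protease Fur2 (log2 fold change -0.88, adjusted p = 0.012), near the 14.7% of all genes. No gene matched the patterns for other protease inhibitors, such as Kunitz, Kazal or pacifastin. In dsInR1 and dsInR3, edgeR called 0 genes of any of these lists.

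Of the hemocyte markers, the other cell type known for hemolymph proteases, 9 of 14 genes were tested, and 1 rose and 1 fell in dsInR2, where 32.3% of all genes were called. The tested ones were integrins, peroxidasins and disintegrin proteases, which other cells express too. The 14 summed to 154.4 to 230.7 CPM in dsInR2 and 160.9 to 193.4 CPM in dsMock, with 2 of the 14 at 0 reads in dsInR2 and 3 in dsMock. The defining fat body genes of the marker list, such as apolipophorin (APLP) and transferrin (TRF), had reads in every group. That list of 12 summed to 239200 to 367900 CPM in dsInR2 and 50530 to 63580 CPM in dsMock. Its members went both ways: all 12 were tested, 7 rose and 3 fell, beside 17.6% higher and 14.7% lower over all genes. The median log2 fold change of the 12 was 0.91, against 0.04 over all tested genes. The pattern for transferrin also matched enzymes named acetyl-transferring, so the sum, counts and median include genes matched by a fragment of an unrelated name.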

How the data were processed

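Fat body RNA of 16 libraries was measured by polyA RNA sequencing. The authors deposited raw read counts per gene for 28676 genes. The submitters' processing notes list FastQC, Trimmomatic, HISAT2 and StringTie but give no version. The name of the deposited table gives the build as Bger_1.1. Use of strand and treatment of multiply matching reads are not given in the sources used here. A further 32 per-library columns, of length-corrected units, were not used, since they could not be matched to single samples beside the counts; the planned comparison of levels per length was therefore not made.

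Column names hold a group and a number unlike the titles' replicate numbers, so columns were assigned to groups only; the polyhedrin columns were taken as dsMock, the only group left. Replicates were compared (24 pairs, chi-square per degree of freedom at least 21.7). Counts were tested with edgeR 4.0.16 (R 4.3.3) by the two-sided quasi-likelihood test, TMM scaling and filterByExpr, 1 coefficient per group over 16 libraries, Benjamini-Hochberg adjustment over 10536 genes. SE was derived from the F statistic. On simulated counts for dsInR2 against dsMock over 10536 genes, 81 of 100 genes changed 2 log2 units and 35 of 100 changed 1 unit were recovered. The changed genes were drawn at random from all tested genes, and every group otherwise had the dsMock profile. The simulation thus lacks the 32.3% of genes called in the data and the change in C0J52_15443. These shares therefore do not give the recovery in the real comparison, or for members with few reads. Alternatives were RLE size factors, DESeq2 1.42.0, no filter, 2-group fits and leaving out each library.

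Members and lists were chosen with earlier results of these data known. Values were given for Klk7, members called against dsMock, the 8 members with most reads, the 2 with most reads of each role class (reads in place of the per-length level first planned) and members called only between receptor treatments; ITIH4_0, Spn28Dc, snk_0, snk_1 and TRYP7_1 were added after their values were seen. Coordinates are from an annotation of the same build, which holds all 28676 locus tags.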

Additional observations from a re-analysis of the deposited data

Results flagged for a closer look

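Among 62 groups of 4 libraries with reads on a tested member, 8 had 1 library apart from the other 3 by Dixon's criterion. The criterion flags about 5% of groups by chance where values are normally distributed. It was applied to untransformed CPM, so the 8 of 62 cannot be read against that share. C0J52_16338 had 10.4 CPM in dsInR1 library 2, against 0.508 to 1.42 CPM in the other dsInR1 libraries, and 0 CPM in dsMock library 3, against 0.633 to 0.697 CPM. ITIH4_1 had 28.0 CPM in dsMock library 5, against 4.06 to 5.77 CPM in the other dsMock libraries. Spn88Ea had 6.43 CPM in the same library, against 0.847 to 1.68 CPM. TRYP2 had 131.2 CPM in dsInR2 library 8, against 19.4 to 35.9 CPM in the other dsInR2 libraries. The single libraries with reads in an otherwise empty group were dsInR1 library 2 for Klk7 (2.42 CPM), dsInR3 library 3 for Klk7 (0.409 CPM) and dsInR1 library 6 for easter (ea, 1.57 CPM). Such a library is flagged at any level.

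The effects of dsInR2 differed from those of another receptor treatment in a direct edgeR test for the following members. Against dsInR1, the log2 difference of dsInR2 was -3.01 for ITIH4_2, 3.47 for ITIH4_3, 1.79 for PLG and -0.75 for HtrA2_1. Against dsInR3 it was -2.20 for ITIH4_2, 3.42 for ITIH4_3, 3.53 for ITIH4_1, 1.67 for PLG and -0.73 for HtrA2_1.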

How the results depend on the processing

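ITIH4_2, ITIH4_3, PLG, HtrA2_1 and Klk7 kept their direction and their call in dsInR2 against dsMock under each of the 12 alternatives run, namely RLE factors, DESeq2, no filter, 2-group fits and leaving out each of 8 libraries. The highest adjusted p was 0.0481, for HtrA2_1. Leaving out 1 library gave 2 to 4 members higher and 3 to 5 lower in dsInR2 against dsMock. Without dsInR2 library 4, where easter had 0 reads, ITIH4_1 and easter were also higher. Without dsInR2 library 8, TRYP2 and VSP_1 were also lower. In dsInR2 against dsInR1 it gave 2 to 3 higher and 2 to 4 lower, and against dsInR3 1 to 3 higher and 2 to 3 lower. The count of 1 followed from leaving out dsInR3 library 6 or 7. The causes were not tested. Every alternative called 0 members in dsInR1 against dsMock, dsInR3 against dsMock and dsInR1 against dsInR3. For 70 combinations of a member and a comparison that no fit called, 53 of 828 recomputed values had the other sign. RLE factors moved the median of all genes by at most 0.03 on the log2 scale. The planned check of levels in a length-corrected unit was not run. No paired analysis was possible because the columns do not carry the replicate numbers of the titles. Of the tested members, 10 averaged under 5 CPM in every group, which limits what can be detected.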

Other observations

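The libraries of a group differed in how many tested members had their highest level there. In dsInR1, library 2 held the highest level of 8 of the 16 tested members, among them Klk7, C0J52_16338, SERPINB9 and ITIH4_2. In dsInR3, library 5 held the highest level of 7 of 16. The share over all tested genes was not computed, so these counts do not set the members apart from other genes. Of the 37 members, 12 share a contig with another member, on 5 contigs. Of the 5 contigs, the one with 3 ITIH4 genes is the only one on which more than 1 member was tested.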
